A study of Mus musculus with 12 samples.

Results

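A set of 10 genes of hyaluronan and of the injured extracellular matrix was followed in whole mouse lung: Has1, Has2, Cd44, Tnfaip6, Thbs1, Adamts1, Adamts4, Timp1, Tnc and Lox. They were found as the probe sets annotated to exactly 1 of the 10 symbols, and the 10 genes stand among 18193 genes that the array names in this way. The members have 19 probe sets in all, and for each gene the probe set with the highest mean over all arrays gives the values below. Total RNA of lungs from mice aged 8 to 12 weeks was hybridised to 12 Affymetrix arrays, 3 in each of 4 groups. Control mice received phosphate-buffered saline (PBS). The ventilation group was kept on a mechanical ventilator for 4 hours with large breaths, set to a tidal volume of 30 ml for each kg, which overstretch the lung. The rhPBEF group received recombinant human PBEF, given into the trachea as 20 µg for each mouse, in water at 1.5 µl for each gram the mouse weighed. The group with both treatments received rhPBEF by the same route and was ventilated with the same settings. PBEF stands for pre-B-cell colony-enhancing factor, the cytokine name of the protein of the Nampt gene, which inside cells is an enzyme of NAD synthesis.

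There was no group on the ventilator with smaller breaths, so large breaths and the ventilation procedure cannot be told apart. Nor was there a group given water alone, while control mice received PBS, so rhPBEF and its vehicle cannot be told apart. The labels give neither strain nor sex, nor the time from injection to collection, and they do not say whether ventilated mice also received PBS. Whether each replicate is a mouse of its own is not stated, so the p-values reflect only how far these arrays differ among themselves. Values are log2 intensities as deposited, with array medians from 6.997 to 7.07, and the number of arrays limits the precision. The lung genes Sftpc, Sftpb, Sftpa1, Ager and Scgb1a1 lay between 13.80 and 15.02 on every array. Levels of whole tissue do not separate fewer cells of a type from less RNA per cell. An exact test of 3 against 3 arrays cannot go below p = 0.1, so the moderated test of limma was used, fitted over 12921 genes with Benjamini-Hochberg adjustment and a threshold of 0.05. Of the members, 8 entered that fit. Has2 and Tnfaip6 had a mean under the filter on low levels (6.42) and are given from the same fit without the filter, over 18193 genes.

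Hyaluronan is a long, unbranched sugar polymer that hyaluronan synthases extrude through the cell membrane into the matrix. In the lung, stretch and inflammation break it into fragments or load it with proteins, and cells sense it through receptors such as CD44. The other members act on the matrix around it: thrombospondin and tenascin are matricellular proteins that modulate adhesion, ADAMTS proteases cleave the proteoglycans bound to hyaluronan, TIMP1 inhibits metalloproteases, and lysyl oxidase cross-links collagen and elastin.

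RefSeq promoter windows (GRCm38.p6, 250 bases before to 50 after a start site) were at hand for 6 members: Has1, Cd44, Tnfaip6, Adamts1, Timp1 and Tnc. Each window was searched on both strands for motifs of factors known to act in stretched or inflamed cells. These were AP-1 (TGANTCA), the cAMP response element or CRE (TGACGTCA), TEAD (GGAATG), NF-kB and the CArG box of serum response factor. The windows of Cd44, Adamts1 and Tnc held no match to any of them. The 3 with a match are printed here, with motif letters in capitals. Their genes rose under both treatments, and so did Cd44, whose window held no match.
Has1: cagacttgtccTGACGTCAgccctcctcca
Tnfaip6: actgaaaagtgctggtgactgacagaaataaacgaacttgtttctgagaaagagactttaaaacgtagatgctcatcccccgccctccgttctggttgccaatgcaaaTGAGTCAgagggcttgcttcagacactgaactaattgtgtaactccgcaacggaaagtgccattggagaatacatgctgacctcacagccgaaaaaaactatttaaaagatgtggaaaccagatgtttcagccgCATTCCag
Timp1: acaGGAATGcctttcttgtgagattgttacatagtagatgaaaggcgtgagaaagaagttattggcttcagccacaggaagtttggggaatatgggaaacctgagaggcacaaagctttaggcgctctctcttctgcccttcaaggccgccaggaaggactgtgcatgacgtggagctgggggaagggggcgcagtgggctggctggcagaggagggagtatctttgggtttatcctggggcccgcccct
The Has1 stretch is the 30 bases around a CRE match 83 to 76 bases before the listed start (chr17:17855253-17855282, minus strand). Only this stretch is given because the listed start lies 401 bases inside the annotated span of Has1. The Tnfaip6 window (chr2:52037863-52038112, plus strand) held an AP-1 match 142 to 136 bases before the start and a TEAD match on the other strand 8 to 3 bases before it. The Timp1 window (chrX:20869916-20870165, plus strand) held a TEAD match 247 to 242 bases before the start. Over all 32851 windows of that length, 7.81% held the AP-1 motif, 1.79% the CRE, 14.7% the TEAD, 8.46% the NF-kB and 1.63% the CArG motif. The AP-1 motif and the CRE read the same on both strands, and neither overlapped another motif here. A match is a string of letters and does not show that a factor bound there.

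**Figure D1:**
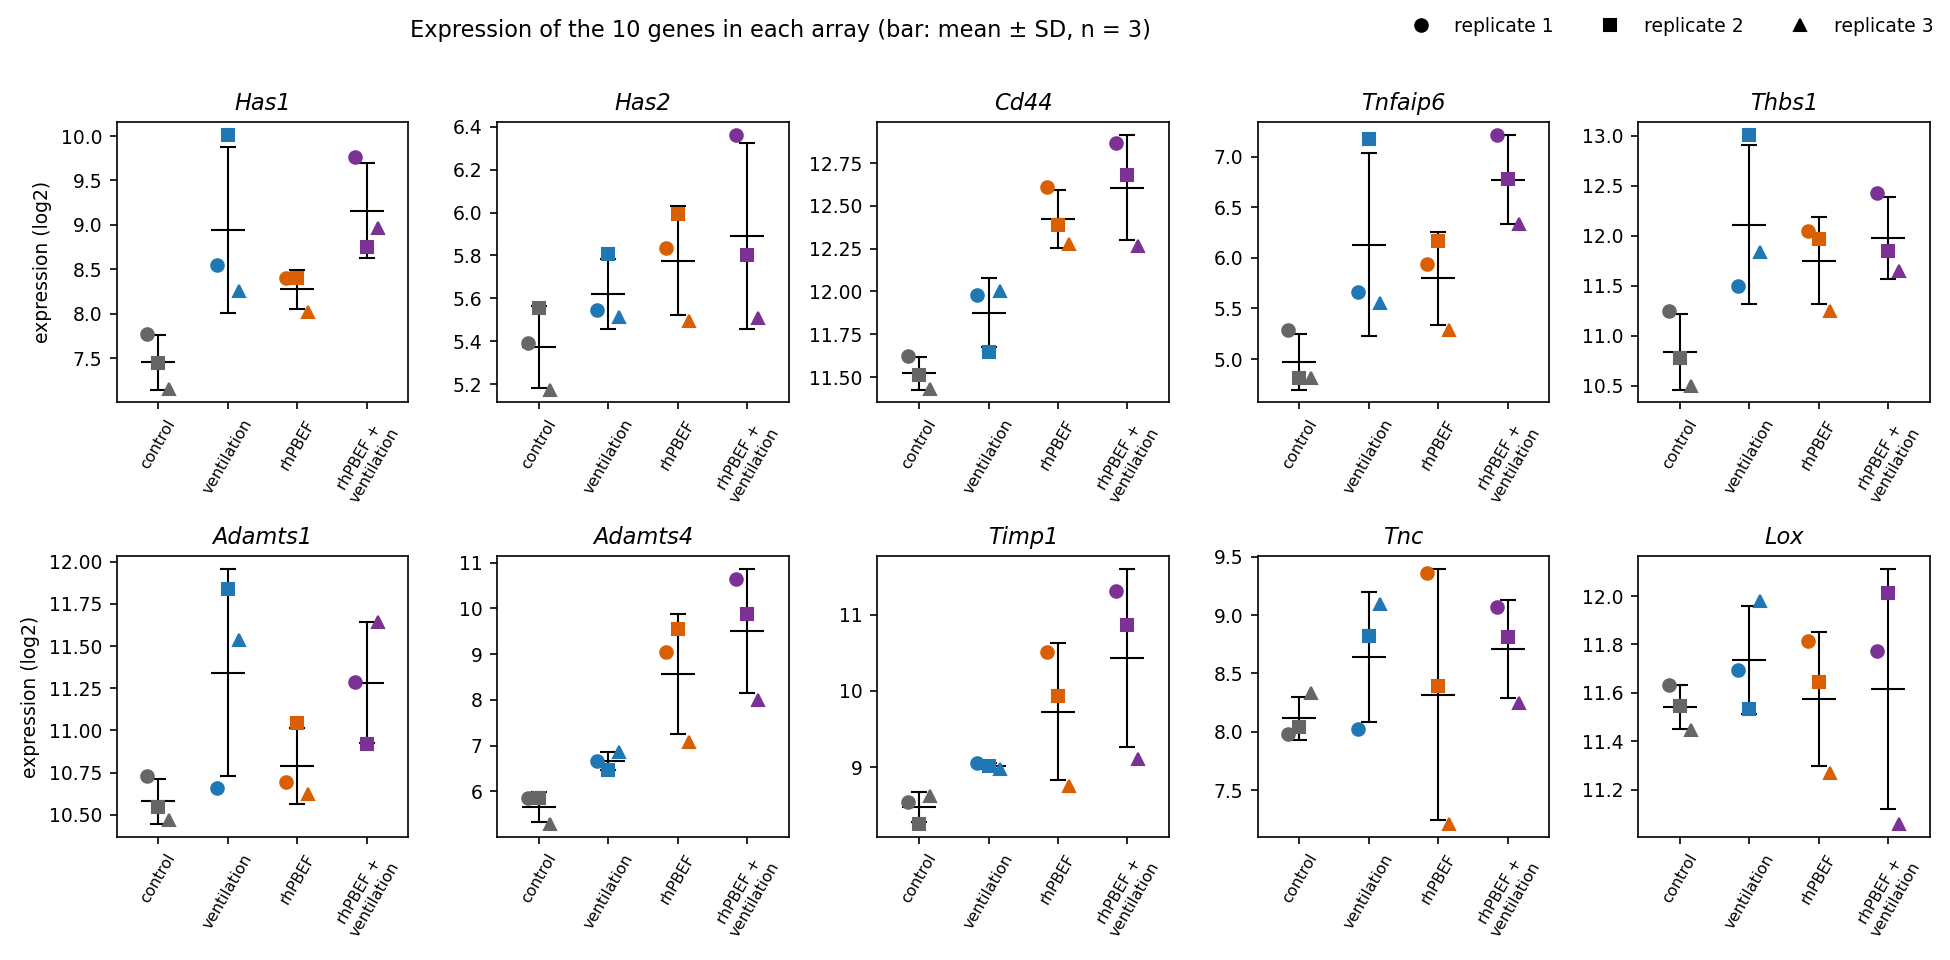
Expression (log2) of the 10 genes on each array, by group, with the mean and SD of 3 arrays as bars and the replicate number as the marker shape. Each panel has its own axis. Adamts4 ranged from 5.29 to 5.86 in control and from 8.00 to 10.64 under both treatments, while Lox overlapped between all groups.

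Has1, encoding a hyaluronan synthase, was higher than every control array in all 9 treated arrays. Its levels were 7.77, 7.45 and 7.15 in control replicates 1, 2 and 3, and 8.55, 10.01 and 8.26 under ventilation. With rhPBEF they were 8.40, 8.40 and 8.02, and with both treatments 9.76, 8.75 and 8.97. Ventilation replicate 2 was the highest array of all, and the combined group lay wholly above the rhPBEF group, where 5.12% of all genes did. Of all genes tested, 9.10% lay wholly above control under ventilation, 9.24% with rhPBEF and 12.5% with both treatments. These shares also stand beside such statements on the members below. The share with all 9 treated arrays above control was not counted. The Has1 mean rose 3.26-fold under both treatments (log2 difference 1.71 ± 0.40 SE, limma adjusted p = 0.0309). Ventilation alone stood at 1.49 ± 0.40 (adjusted p = 0.16) and rhPBEF alone at 0.82 ± 0.40 (adjusted p = 0.306), and neither passed. The rhPBEF difference did pass in a fit of the control and rhPBEF arrays alone (0.0432). Without ventilation replicate 2 the ventilation difference was 0.95. The call under both treatments was lost without any 1 of the control arrays (adjusted p = 0.0787 to 0.0984), without replicate 1 of the combined group (0.139) or without its replicate 2 (0.069).

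Has2, the synthase that makes most hyaluronan in many tissues, lay near the bottom of the scale. Its levels were 5.39, 5.56 and 5.17 in control, 5.54, 5.81 and 5.51 under ventilation, 5.84, 5.99 and 5.50 with rhPBEF, and 6.36, 5.80 and 5.51 with both. Every treated group overlapped the control arrays. The difference under both treatments was 0.52 ± 0.20 (adjusted p = 0.156, no filter), and it passed only without replicate 3 of that group (0.71, adjusted p = 0.037). The table holds no detection calls, so levels this low could not be told from background.

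Cd44 encodes the main cell-surface receptor for hyaluronan and is carried by leukocytes as well as by resident lung cells. It was 11.62, 11.51 and 11.43 in control, 11.98, 11.65 and 12.01 under ventilation, 12.61, 12.39 and 12.28 with rhPBEF, and 12.87, 12.68 and 12.27 with both. The 6 arrays with rhPBEF lay above the 6 without it, where 1.42% of all genes did so, and the ventilated arrays lay above the control arrays by a smaller step. Cd44 rose 1.87-fold with rhPBEF (0.90 ± 0.16, adjusted p = 0.0195) and 2.12-fold with both treatments (1.08 ± 0.16, adjusted p = 0.00555). Ventilation alone gave 0.36 ± 0.16 (adjusted p = 0.306). Averaged over ventilation, the rhPBEF effect was 0.82 ± 0.11 (adjusted p = 0.00265). The rise under both treatments and the averaged rise passed in each alternative tried. The rise with rhPBEF alone was lost without any 1 control array or without rhPBEF replicate 1 or 2 (adjusted p = 0.0605 to 0.101), and with the mean of all probe sets (0.0596). Of the 4 Cd44 probe sets, 3 differed by 0.90 to 0.99 with rhPBEF, and the fourth lay near 3.87 on all arrays with a difference of -0.03.

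Tnfaip6 encodes TSG-6, an inflammation-induced protein that binds hyaluronan and transfers heavy chains onto it. Its levels were 5.29, 4.81 and 4.81 in control, 5.67, 7.18 and 5.55 under ventilation, 5.94, 6.17 and 5.29 with rhPBEF, and 7.21, 6.78 and 6.33 with both. The ventilated and the combined arrays all lay above control, while rhPBEF replicate 3 was no higher than control replicate 1. Control levels this low, at the same value on 2 arrays, could not be told from background, so the size of a difference from control is as measured. Tnfaip6 rose by 1.81 ± 0.40 under both treatments (adjusted p = 0.03, no filter), where 5.21% of all genes without the filter passed. It stood at 1.16 ± 0.40 under ventilation (adjusted p = 0.267) and at 0.83 ± 0.40 with rhPBEF (adjusted p = 0.343). Without ventilation replicate 2 the ventilation difference was 0.64. The call under both treatments was lost without any 1 control array or without replicate 1 or 2 of the combined group (adjusted p = 0.0809 to 0.141). Ventilation replicate 2 was thus the highest ventilated array for Has1, Has2 and Tnfaip6 alike, but the lowest for Cd44.

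Thbs1, encoding the matricellular protein thrombospondin-1, which can activate latent TGF-beta, separated each treated group from control without passing the test in any. It was 11.25, 10.78 and 10.49 in control, 11.49, 13.01 and 11.83 under ventilation, 12.04, 11.96 and 11.25 with rhPBEF, and 12.43, 11.85 and 11.65 with both. All 9 treated arrays lay above the control arrays, and the 3 treated groups overlapped each other. For rhPBEF replicate 3 the gap was negligible, at 11.248 against 11.245 in control replicate 1. The shares of all genes wholly above control in the 3 comparisons were 9.10%, 9.24% and 12.5%. The differences were 1.27 ± 0.38 (adjusted p = 0.188), 0.91 ± 0.38 (0.234) and 1.14 ± 0.38 (0.0807). Without ventilation replicate 2, the ventilation difference was 0.82 and the difference under both treatments passed (adjusted p = 0.0275), as it did in a fit of its own groups (0.0414). A second Thbs1 probe set gave 1.30, 0.99 and 1.22.

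Tnc, encoding tenascin-C, a matricellular protein of injury and repair, passed in no comparison. It was 7.98, 8.04 and 8.33 in control, 8.02, 8.82 and 9.09 under ventilation, 9.36, 8.39 and 7.21 with rhPBEF, and 9.07, 8.81 and 8.25 with both. The rhPBEF arrays held both the highest and the lowest value of the 12. A second Tnc probe set, under the filter, was 4.40, 3.99 and 3.68 in control and 4.45, 7.22 and 5.80 under ventilation. There the ventilation difference was 1.80 ± 0.60 (adjusted p = 0.277 over all probe sets) against 0.53 ± 0.45 for the brighter one.

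Adamts1, a protease that cleaves versican and aggrecan, was 10.73, 10.55 and 10.47 in control, 10.66, 11.84 and 11.53 under ventilation, 10.70, 11.04 and 10.62 with rhPBEF, and 11.28, 10.92 and 11.64 with both. Ventilation replicates 2 and 3 stood above all control and rhPBEF arrays, and ventilation replicate 1 lay among the controls. The difference was 0.76 ± 0.27 under ventilation (adjusted p = 0.241), 0.21 ± 0.27 with rhPBEF (adjusted p = 0.728) and 0.70 ± 0.27 with both (adjusted p = 0.121). The last passed without ventilation replicate 1 (0.0463). Averaged over rhPBEF, the ventilation effect was 0.63 ± 0.19 (adjusted p = 0.165), and it passed without ventilation replicate 1 (0.80, adjusted p = 0.0425).

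Adamts4, another aggrecan- and versican-cleaving protease, had control levels under the filter (6.42), where signal and background could not be told apart, and passed the filter through its treated groups. Its differences from control are therefore sizes as measured. It was 5.85, 5.86 and 5.29 in control, 6.66, 6.47 and 6.86 under ventilation, 9.05, 9.55 and 7.07 with rhPBEF, and 10.64, 9.87 and 8.00 with both. The groups did not overlap between control, ventilation and either group with rhPBEF, and replicate 3 was the lowest in both groups with rhPBEF. Of all genes tested, 5.61% lay wholly higher with rhPBEF than under ventilation, and 4.05% with both treatments than under ventilation. Adamts4 rose by 3.84 ± 0.67 under both treatments (adjusted p = 0.0116). It stood at 2.89 ± 0.67 with rhPBEF (adjusted p = 0.0681) and at 0.998 ± 0.67 under ventilation (adjusted p = 0.475). The rhPBEF effect averaged over ventilation was 2.87 ± 0.48 (adjusted p = 0.00829), and it passed in each alternative tried. The rise under both treatments was lost without replicate 1 (adjusted p = 0.053) or 2 (0.0556) of that group. The rhPBEF difference passed without rhPBEF replicate 3 (3.64, adjusted p = 0.0232), without replicate 1 or 3 of the combined group (0.0478 and 0.017) and in a fit of the control and rhPBEF arrays alone (0.0372). The other Adamts4 probe set gave 0.68, 2.05 and 2.79 in the 3 comparisons with control.

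Timp1, the secreted metalloprotease inhibitor, also had its lowest value at replicate 3 in both groups with rhPBEF. It was 8.55, 8.26 and 8.63 in control, 9.06, 9.01 and 8.98 under ventilation, 10.51, 9.93 and 8.75 with rhPBEF, and 11.31, 10.87 and 9.10 with both. Ventilated arrays lay in a narrow band above control, and rhPBEF replicate 3 lay below that band. Timp1 rose 3.87-fold under both treatments (1.95 ± 0.52, adjusted p = 0.0443). That call was lost without the filter (0.0527), in a fit of the 2 groups alone (0.0617), and when any of 8 arrays was left out. Those were the 3 control arrays (0.101 to 0.128), ventilation replicates 1 and 3 (0.0563 and 0.0522), rhPBEF replicate 2 (0.0556) and replicates 1 and 2 of the combined group (0.184 and 0.143). With rhPBEF alone the difference was 1.25 ± 0.52 (adjusted p = 0.239), and under ventilation 0.54 ± 0.52 (adjusted p = 0.622). The averaged rhPBEF effect was 1.33 ± 0.37 (adjusted p = 0.0644), and it passed without rhPBEF replicate 3 (1.58, adjusted p = 0.0306) or replicate 3 of the combined group (1.66, adjusted p = 0.0037).

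Lox, encoding lysyl oxidase, was 11.63, 11.55 and 11.45 in control, 11.69, 11.53 and 11.98 under ventilation, 11.81, 11.64 and 11.27 with rhPBEF, and 11.77, 12.01 and 11.06 with both. All groups overlapped. The differences of 0.19, 0.03 and 0.07 (each ± 0.22 SE, adjusted p = 0.68, 0.956 and 0.859) were smaller than their errors. The 95% interval for both treatments ran from -0.42 to 0.56.

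**Figure D2:**
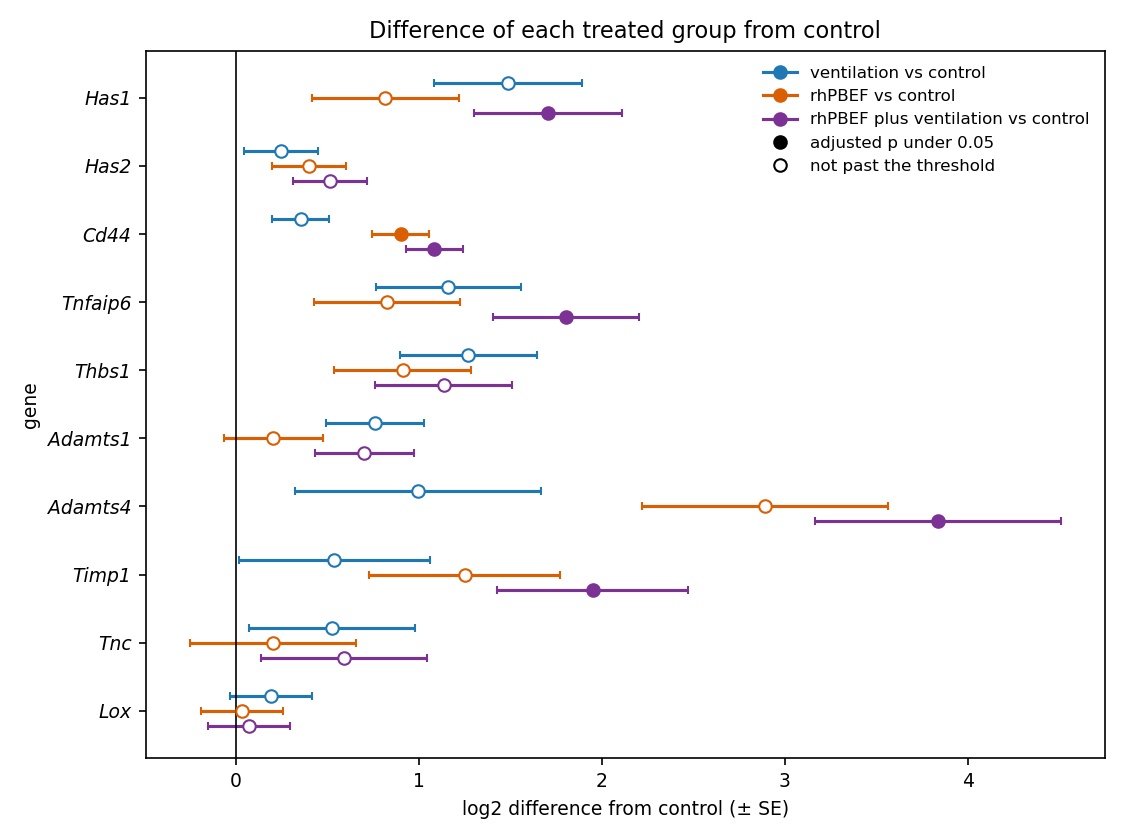
Log2 difference from control (± SE) of each gene under ventilation, rhPBEF and both treatments. Filled points have an adjusted p under 0.05, with Has2 and Tnfaip6 from the fit without the filter. Under both treatments 5 points are filled, with rhPBEF 1, and under ventilation none.

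The comparison of ventilation with control asks how these genes differed after the whole ventilation procedure, large breaths included, without rhPBEF. All 10 differences were positive, with a median of 0.65 against -0.04 over all genes tested. The members were chosen with earlier results of these data known, so such medians and counts of signs, here and below, only describe the set. None of the 8 members in the filtered fit passed, and 5 of the 10 had an unadjusted p under 0.05. Tnfaip6 is counted among these 5 from the fit without the filter. In this comparison 0.00774% of all genes passed, which was the single gene Ephb4, named after its value was seen, at -0.82. An unadjusted p under 0.05 was found for 2004 of the 12921 genes tested, so such values were common. In all, 6 members lay above every control array in all ventilated arrays (Has1, Cd44, Tnfaip6, Thbs1, Adamts4 and Timp1), where 9.10% of all genes tested did so. Tnfaip6, under the filter, is counted here and in such counts below but is not among the genes tested.

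For rhPBEF against control, which asks how unventilated lungs given rhPBEF in its vehicle differed, 1 of 8 members passed (Cd44) beside 1.22% of all genes. The median of the 10 differences was 0.82 against -0.07 over all genes, and 5 members lay wholly above control, where 9.24% of all genes did. For both treatments against control, 4 of 8 members passed (Has1, Cd44, Adamts4 and Timp1) beside 8.79% of all genes, and Tnfaip6 passed without the filter. Adamts4 is counted there although it was over the filter only through its treated groups. The median was 1.11 against -0.06, and 7 members, Tnfaip6 included, lay wholly above control, where 12.5% of all genes tested did. These comparisons share the 3 control arrays, so their values are given side by side and not as independent findings.

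With both treatments against rhPBEF alone, which asks what ventilation added, all 10 differences were positive (0.04 to 0.98) and none of 8 members passed, beside 0.00774% of all genes. That share was the gene Acaa1b at -1.47, named after its value was seen. Tnfaip6 had the widest difference (0.98 ± 0.40, adjusted p = 0.999 without the filter), followed by Adamts4 (0.94 ± 0.67) and Has1 (0.89 ± 0.40), both with adjusted p = 0.999. Has1 and Tnfaip6 lay wholly higher with both treatments, where 5.12% of all genes tested did, Tnfaip6 not being among those. With both treatments against ventilation alone, none of 8 passed, beside 0.325% of all genes. Adamts4 stood at 2.84 ± 0.67 (adjusted p = 0.15), Timp1 at 1.41 ± 0.52 (0.405) and Cd44 at 0.73 ± 0.16 (0.0948). These 3 members lay wholly higher with both treatments, where 4.05% of all genes did. Each of these 3 passed when replicate 3 of the combined group was left out, at adjusted p of 0.0105, 0.0198 and 0.00752. Without that array the genes past the test rose from 42 to 406 of 12921, so the gain was not particular to these members. The other 7 members lay between -0.14 for Thbs1 and 0.64 for Tnfaip6.

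**Figure D3:**
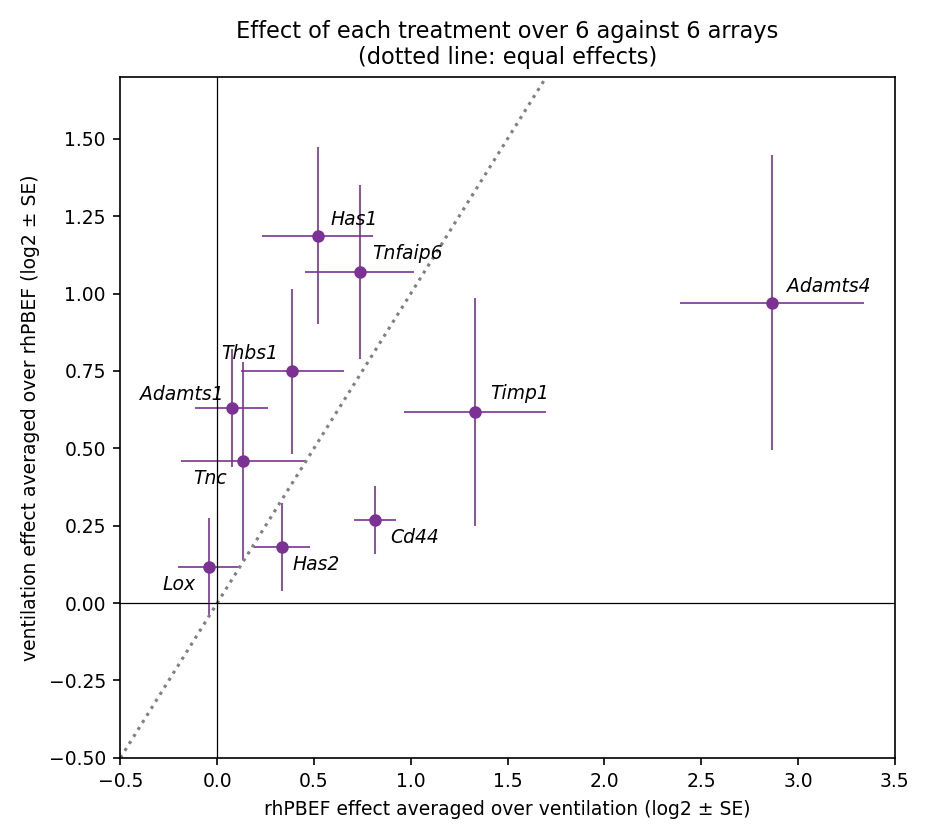
The rhPBEF effect averaged over ventilation (x axis) and the ventilation effect averaged over rhPBEF (y axis) for each gene, on the log2 scale with SE and 6 against 6 arrays, with a dotted line where both are equal. Adamts4, Timp1, Cd44 and Has2 lie to the right of the line, and the other 6 genes lie to its left.

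Averaged over rhPBEF, the ventilation effect was positive for all 10 members and past the test for none of 8, beside 0.549% of all genes. It was 1.19 ± 0.28 for Has1 (adjusted p = 0.108), 1.07 ± 0.28 for Tnfaip6 (0.146), 0.97 ± 0.48 for Adamts4 (0.335), 0.75 ± 0.27 for Thbs1 (0.21) and 0.63 ± 0.19 for Adamts1. The remaining members lay between 0.12 for Lox and 0.62 for Timp1. The rhPBEF effect averaged over ventilation passed for Cd44 and Adamts4, 2 of 8, beside 4.67% of all genes. Adamts4 is counted although its mean over the arrays without rhPBEF (6.16) lay under the filter (6.42), which it passed through the groups with rhPBEF. In this averaged rhPBEF effect Has1 stood at 0.52 ± 0.28 (adjusted p = 0.297), Tnfaip6 at 0.74 ± 0.28 (0.172), Thbs1 at 0.39 ± 0.27 (0.404) and Has2 at 0.34 ± 0.14 (0.216). Without ventilation replicate 2, Has1 (0.79, adjusted p = 0.0447) and Tnfaip6 (0.997, adjusted p = 0.0249) passed too. The averaged effects of Adamts1, Tnc and Lox were 0.07, 0.13 and -0.04.

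Whether the treatments acted differently on a gene was asked in a direct comparison of rhPBEF with ventilation, added after the data were seen, and in the interaction. In the direct comparison none of 8 members passed, beside 0.689% of all genes. Adamts4 was 1.90 ± 0.67 higher with rhPBEF (adjusted p = 0.304, 95% interval 0.41 to 3.38) and Cd44 0.55 ± 0.16 higher (adjusted p = 0.195, 0.20 to 0.89). Both lay wholly above the ventilated arrays, where 5.61% of all genes did. Has1 was -0.67 ± 0.40 (adjusted p = 0.519, interval -1.56 to 0.22) and Adamts1 -0.55 ± 0.27 (adjusted p = 0.43, interval -1.15 to 0.04). The other 6 lay between -0.36 for Thbs1 and 0.71 for Timp1. For none of the 10 genes was a difference between the treatments past the test.

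The interaction asks whether the combined difference departs from the sum of the single ones. It was negative for 9 of 10 members, with a median of -0.16 against 0.05 over all genes tested. None of 8 members passed, and neither did any other gene in the limma fit (0% of all genes, 288 at an unadjusted p under 0.05). Thbs1 had the widest value, -1.05 ± 0.53 (adjusted p = 0.998, 95% interval -2.21 to 0.12). Adamts4, at -0.05 ± 0.95, had an interval from -2.15 to 2.04.

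**Figure D4:**
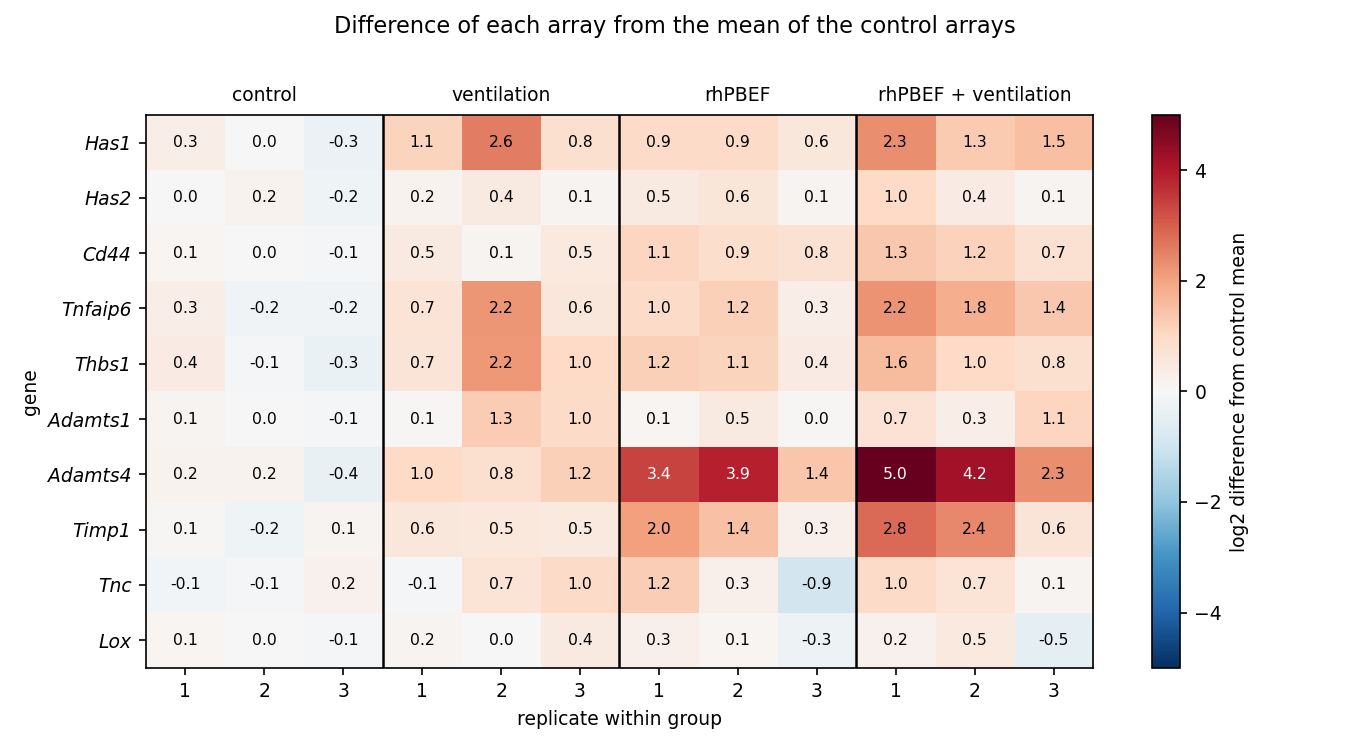
Log2 difference of each array from the control mean for each gene (rows) and array (columns, by group and replicate), with red above and blue below control. The rhPBEF replicate 3 column has the lowest value of its group in all 10 rows, and ventilation replicate 2 is the highest of its group for Has1, Has2, Tnfaip6, Thbs1 and Adamts1.

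The rhPBEF replicate 3 array had the lowest value of its group for all 10 members, and replicate 3 of the combined group had the lowest for 8 and its replicate 1 the highest for 8. The mean of the 10 members over control was 1.17, 1.09 and 0.27 in rhPBEF replicates 1, 2 and 3, and 1.82, 1.38 and 0.82 in the combined group. Under ventilation it was 0.48, 1.08 and 0.71. The ventilated arrays had no common order: replicates 1, 2 and 3 were the highest for 1, 5 and 4 members and the lowest for 3, 3 and 4.

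Markers of other cell types moved with some of these groups. Of 13 neutrophil markers 11 were on the array and 10 passed the filter. Their mean over control was 2.72, 2.57 and 0.78 in ventilation replicates 1, 2 and 3, 2.31, 2.08 and 1.98 with rhPBEF, and 3.50, 2.24 and 1.76 with both, against -0.15 to 0.09 in control. Of those 10, none passed under ventilation, 4 with rhPBEF and 7 with both. The shares of all genes past the test in these 3 comparisons were 0.00774%, 1.22% and 8.79%. The order of the 3 replicates by neutrophil mean was the same as by the mean of the members with rhPBEF and with both treatments, and it differed under ventilation. Other lists shared the members' order too: fibroblast and smooth muscle with rhPBEF, macrophage and monocyte with both, and smooth muscle under ventilation. Mesothelial means ran in the reverse order with rhPBEF, and with both treatments so did mesothelial, smooth muscle, endothelial, platelet, skeletal and cardiac muscle means. Under ventilation the platelet and the macrophage and monocyte means ran in the reverse order. An order of 3 arrays can match by chance. The ranges that follow are of the mean of each list on single arrays, not of single markers. Fibroblast means ranged from -0.55 to -0.02 under ventilation, -0.18 to 0.23 with rhPBEF and -0.04 to -0.03 with both. Mesothelial means ranged from 0.10 to 0.62, 0.17 to 0.58 and 0.15 to 0.59 in the same order, and 1 mesothelial and 1 endothelial marker passed under both treatments. Platelet means stayed within -0.19 to 0.36 on all treated arrays, and macrophage and monocyte means within -0.22 to 0.28. Of the 10 macrophage markers tested, 1 passed with rhPBEF and 2 with both, and none of the 8 fibroblast or 6 platelet markers passed in any of the 3 comparisons. Endothelial means lay between -0.40 and -0.03 on the treated arrays and smooth muscle means between -1.29 and 0.15. Skeletal muscle means were high in ventilation replicate 3 (1.86) and rhPBEF replicate 2 (2.61), and the cardiac mean was low in ventilation replicate 1 (-2.04). The part of any of these in the members' values was not tested.

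**Figure D5:**
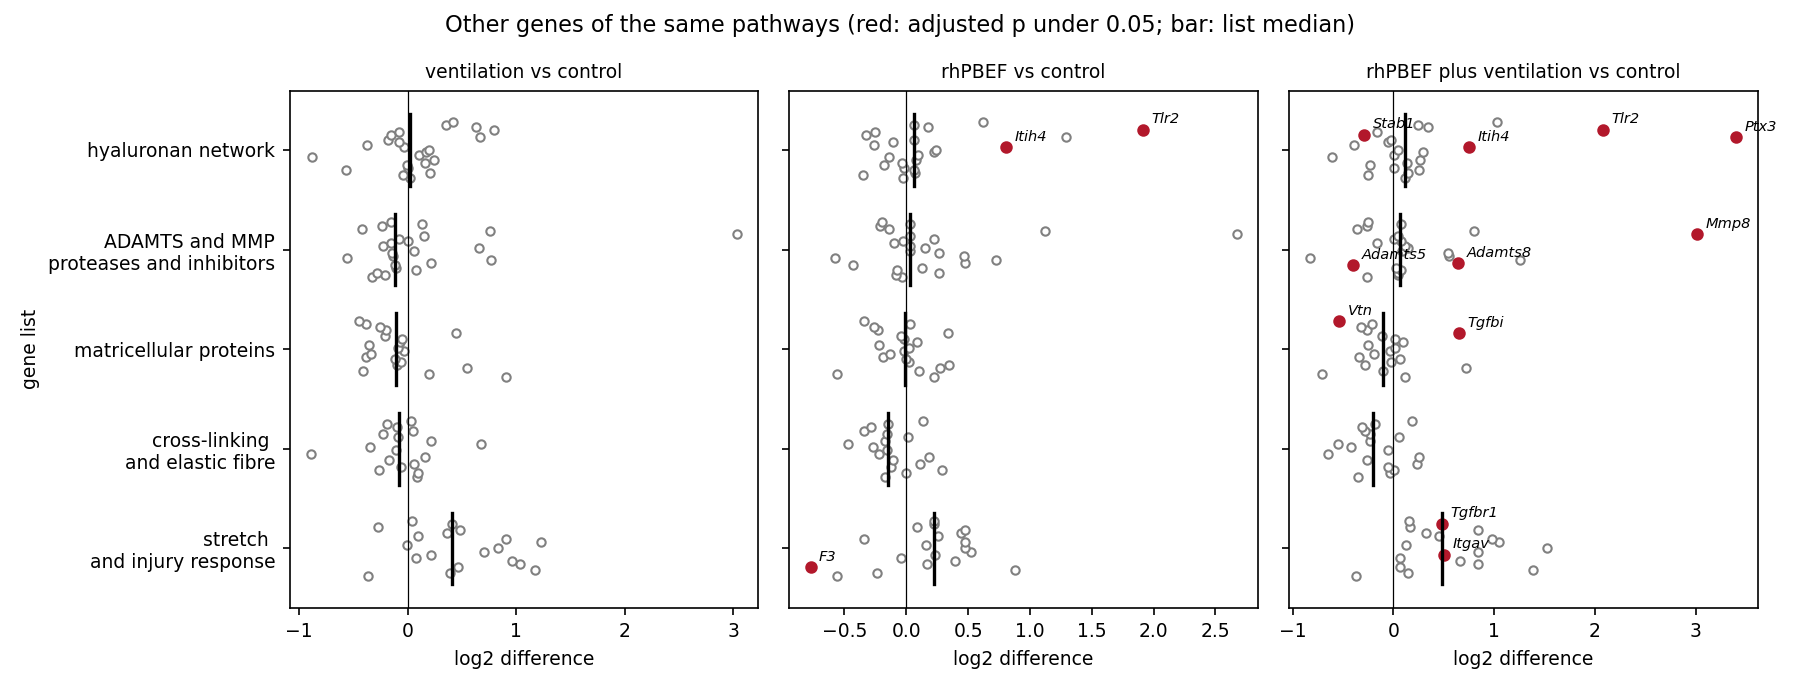
Log2 difference from control of other genes of the same pathways, in 5 lists (rows) and 3 comparisons (panels, each with its own axis). Each point is a gene, red where the adjusted p is under 0.05, and the bar is the list median. Named red points lie mostly under both treatments, where the hyaluronan list holds Ptx3 at 3.41, Tlr2 at 2.08, Itih4 at 0.76 and Stab1 at -0.29.

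Other genes of the hyaluronan network passed in small numbers. Of 32 listed, 31 were on the array and 23 were tested. None passed under ventilation, with a median of 0.02 against -0.04 over all genes. Ugdh, the enzyme that makes the sugar precursor UDP-glucuronate, stood at 0.36 ± 0.09 (adjusted p = 0.137), and the hyaluronidase Hyal2 at -0.88 ± 0.22 (adjusted p = 0.138). With rhPBEF 2 rose and none fell, beside 1.22% of all genes. Tlr2, a pattern receptor reported to sense hyaluronan fragments, rose by 1.92 ± 0.34 (adjusted p = 0.0216). Itih4, of the inter-alpha-inhibitor family, rose by 0.81 ± 0.12 (0.00855). Under both treatments 3 rose and 1 fell, 4 of 23 beside 8.79% of all genes, with a median of 0.12 against -0.06. Ptx3, a pentraxin that helps assemble hyaluronan matrix with TSG-6, rose by 3.41 ± 0.68 (adjusted p = 0.0184), from 6.27 ± 0.41 (SD, n = 3) in control to 9.67 ± 1.42 (SD, n = 3). Its control level lay under the filter, so this size too is as measured. Stab1, a scavenger receptor, fell by 0.29 ± 0.07 (adjusted p = 0.0398).

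Among 24 tested genes of the ADAMTS and MMP proteases and their inhibitors, none passed under ventilation or with rhPBEF. With both, 2 rose and 1 fell, beside 8.79% of all genes past the test. Mmp8, the neutrophil collagenase, rose by 3.02 ± 0.74 (adjusted p = 0.035), and it is also one of the neutrophil markers above. Under ventilation it stood at 3.03 with the same error (adjusted p = 0.137). Adamts8 rose by 0.64 ± 0.15 (adjusted p = 0.0307). Adamts5, a further aggrecan-cleaving protease, fell by 0.40 ± 0.10 (adjusted p = 0.0338), against the rise of 3.84 for Adamts4. In the rhPBEF effect averaged over ventilation Adamts8 (0.45 ± 0.11, adjusted p = 0.0398) and Adamts5 (-0.35 ± 0.07, adjusted p = 0.017) passed too, beside 4.67% of all genes. List medians were -0.11, 0.03 and 0.06 in the 3 comparisons.

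Of 20 tested matricellular genes, Tgfbi rose by 0.66 ± 0.14 (adjusted p = 0.0219) and Vtn, encoding vitronectin, fell by 0.54 ± 0.08 (adjusted p = 0.00517) under both treatments. The share of all genes past the test there was 8.79%. None of the 20 passed in either single treatment. Vtn was also lower in the ventilation effect averaged over rhPBEF (-0.32 ± 0.05, adjusted p = 0.0388) and in the rhPBEF effect averaged over ventilation (-0.22 ± 0.05, adjusted p = 0.045). None of the 18 tested cross-linking and elastic fibre genes passed in any comparison with control, and list medians were -0.08, -0.15 and -0.20. The microfibril gene Mfap2 stood at -0.89 ± 0.26 under ventilation (adjusted p = 0.18).

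In the list of stretch and injury response genes, 19 were tested. The medians were 0.41, 0.22 and 0.49 against -0.04, -0.07 and -0.06 over all genes, with 16, 14 and 18 positive. None passed under ventilation, where Plaur, the urokinase receptor, stood at 1.23 ± 0.33 (adjusted p = 0.159) and Tgfbr1 at 0.41 ± 0.09 (0.128). With rhPBEF only F3, encoding tissue factor, passed, beside 1.22% of all genes, and it fell by 0.77 ± 0.14 (adjusted p = 0.0242). Under both treatments Itgav, an integrin chain that can activate TGF-beta, rose by 0.50 ± 0.09 (adjusted p = 0.012), and Tgfbr1 rose by 0.49 ± 0.09 (adjusted p = 0.0165). These 2 of 19 stood beside 8.79% of all genes. F3 rose in the averaged ventilation effect (0.65 ± 0.10, adjusted p = 0.0235) and fell in the averaged rhPBEF effect by 0.58 ± 0.10 (adjusted p = 0.00909). Itgav rose in the averaged rhPBEF effect (0.26 ± 0.06, adjusted p = 0.0422). F3 was lower with rhPBEF than under ventilation by a difference of -1.23 ± 0.14 (adjusted p = 0.00303). Itih4 was higher with rhPBEF than under ventilation (0.84 ± 0.12, adjusted p = 0.00857). F3 and Itih4 were the 2 genes of the 5 lists past the test in that comparison, where 0.689% of all genes passed.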

How the data were processed

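The deposited table holds log2 expression values of 45101 probe sets on 12 arrays, and MAS5 and GCRMA are named, with no version or role, per the submitters' processing notes. Groups were taken from the sample titles. A description label that names all samples control animals was set aside. Probe sets with 1 gene symbol (34945) were kept, 932 with several and 9160 with none were left out, and each gene was represented by its brightest probe set by mean over all arrays. Genes with a mean above the 40th percentile (6.42) were tested with limma 3.58.1 in R 4.3.3, using 4 group means, 8 residual and 2.99 prior degrees of freedom, and Benjamini-Hochberg adjustment within each comparison. The fit was tested on simulated data. No 2 arrays were identical.

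All 10 members are named, and other pathway genes by the rule of at most 4 per list and comparison (the widest past 0.05, or where none passed at most 2 with the smallest p). Further genes are said to be chosen after their values were seen. The members and lists were chosen with earlier results of these data known. Promoter sequences come from RefSeq (GRCm38.p6). Alternatives were the filter, scaling, probe set choice, an intensity trend, fits of only the groups compared, a replicate block and leaving out each array. Python 3.11.15 and matplotlib 3.10.9 drew the figures.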

Additional observations from a re-analysis of the deposited data

How the results depend on the processing

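Of 1842 alternative values for 90 results on single members, 1741 kept their direction and their side of the threshold, 28 lost a call, 19 gained one and 54 changed sign. The cause was not tested in any of these cases. Median centring and quantile scaling moved the median of all genes by less than 0.1. With 1 array left out, the number of genes past 0.05 ranged from 0 to 43 for ventilation (1 with all arrays), 44 to 358 for rhPBEF (158) and 152 to 2498 for both treatments (1136), lowest without replicate 1 and highest without replicate 3 of that group. It ranged from 0 to 3 for both against rhPBEF (1), 13 to 406 for both against ventilation (42), 6 to 555 for the averaged ventilation effect (71), 234 to 1584 for the averaged rhPBEF effect (604), 0 to 4 for the interaction (0) and 42 to 171 for rhPBEF against ventilation (89). An intensity trend gave 4 genes for ventilation and all probe sets as units gave 2. Fits of only the groups compared gave 0 for ventilation, 636 for rhPBEF, 0 for both against rhPBEF, 3 for both against ventilation and 40 for rhPBEF against ventilation. Without the filter the averaged ventilation effect had 40.

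Same-numbered arrays correlated from -0.21 to 0.526 in their deviations from the group means, over 0.1 in 7 of 18 pairs, and highest for replicate 3 of rhPBEF and of both treatments. Arrays of different numbers were not correlated for comparison, so these values cannot settle whether arrays of 1 number share a batch. The numbers were not used to pair arrays in the main fit. With a replicate block, 0 genes passed for ventilation and 0 for both against rhPBEF, Adamts4 passed with rhPBEF (adjusted p = 0.0311) and Timp1 in the averaged rhPBEF effect (0.0386).

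Sign changes arose mostly when 1 array was left out, with these ranges of the log2 difference. Against control they were -0.32 to 0.76 for Tnc and -0.085 to 0.19 for Lox with rhPBEF, and -0.13 to 0.35 for Lox with both. For both against rhPBEF they were -0.12 to 0.31 for Has2, -0.027 to 0.39 for Thbs1, -0.16 to 0.91 for Tnc and -0.16 to 0.32 for Lox. For both against ventilation they were -0.12 to 0.75 for Has1, -0.44 to 0.31 for Thbs1, -0.40 to 0.19 for Adamts1, -0.24 to 0.30 for Tnc and -0.32 to 0.16 for Lox. For the averaged rhPBEF effect they were -0.10 to 0.20 for Adamts1, -0.12 to 0.41 for Tnc and -0.14 to 0.10 for Lox. For the interaction they were -0.37 to 0.061 for Has2, -0.48 to 0.34 for Tnfaip6, -0.80 to 0.70 for Adamts4, -0.33 to 0.82 for Timp1, -0.69 to 0.38 for Tnc and -0.35 to 0.12 for Lox. For rhPBEF against ventilation they were -0.62 to 0.19 for Tnfaip6, -0.67 to 0.088 for Thbs1 and -0.84 to 0.23 for Tnc. With the mean of all probe sets, run for members only, the sign changed for Tnc (-0.27) and Lox (0.020) in both against ventilation, Lox in the averaged rhPBEF effect (0.10) and Adamts4 in the interaction (0.0021).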
